A study of Mus musculus with 11 samples.

Results

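This report describes 10 genes of the acute phase response in mouse liver after induction of YAP: the serum amyloid A genes Saa1, Saa2 and Saa3, the orosomucoid genes Orm1, Orm2 and Orm3, Lcn2, Hp, Hpx and Apcs. They were chosen by name as acute phase proteins, and all 10 of them were among the 20893 genes of the deposited table and among the 14244 genes tested. Whole livers of 11 mice of the C57BL/6 background were measured by bulk RNA-seq, with 1 library per liver. All mice carried the ROSA26-rtTA-IRES-EGFP allele, from which a transactivator that answers to doxycycline is made. The 4 control livers, whose genotype is given as WT for the YAP transgene, came from mice on doxycycline food for 7 days. The 4 livers of the first induced group carried tetYAP and had 3 days of doxycycline food, and the 3 livers of the second carried tetYAP and had 7 days. The 3-day livers therefore differed from controls both in the transgene and in the days of doxycycline. In the study's methods the cross also holds Alb-CRE, which restricts the transactivator to cells in which the albumin promoter has been active, mainly hepatocytes. The transgene is a constitutively active point mutant of YAP, a coactivator that acts through TEAD factors. Ages of these mice were not given in the sources used here. The labels give 1 liver per sample and nothing on litters or handling, so p-values measure the spread between these livers, which may in part be technical.

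The acute phase response is the change in liver secretion that follows infection or injury. Cytokines made by macrophages and other cells, above all interleukin 6 and interleukin 1, act on hepatocytes through STAT3, C/EBP and NF-kB factors and raise the transcription of secreted plasma proteins. Serum amyloid A proteins travel on high-density lipoprotein, orosomucoids bind small lipophilic molecules, lipocalin 2 withholds iron from bacteria by binding siderophores, haptoglobin and hemopexin capture free hemoglobin and heme, and serum amyloid P, the product of Apcs, is a pentraxin that opsonizes debris and microbes. In mice, SAA proteins and serum amyloid P are major acute phase reactants.

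Depth differed widely between libraries. From the steps of the deposited values, libraries held 1251396 to 5495697 reads on genes in controls, 2660233 to 3681416 in 3-day livers and 5312486 to 5941357 in 7-day livers, so that the 7-day libraries were deeper than 3 of the 4 control libraries. Control liver 4 was the shallowest and control liver 2 was the only control near the depth of the 7-day group. Xist exceeded Ddx3y in 2 of 4 controls, 2 of 4 livers at 3 days and 3 of 3 at 7 days, so sex and the 7-day group cannot be fully told apart. Reads placed on the mouse Yap1 gene did not follow the labels (13.9 to 21.1 eRPKM in controls and 17.4 to 19.0 at 7 days), and whether reads of the transgene fall on this gene was not tested. The YAP target Cyr61 had at most 14.4 eRPKM in a control, 26.8 to 53.4 eRPKM in 3-day livers and 90.5 to 91.4 eRPKM in 7-day livers, with no overlap between groups. The hepatocyte marker list (6 of 6 genes in the table) summed to 1176 to 3372 eRPKM in controls, 1441 to 1806 in 3-day livers and 954.8 to 1059 in 7-day livers, so hepatocyte markers were high in every liver and lowest in the 7-day livers. In bulk tissue, fewer cells of a type and less RNA per cell cannot be told apart. Reads on Alb, a gene of this list, ranged only from 2417 to 3102 over all libraries, so its eRPKM was lower in the deeper libraries. The part of depth in the hepatocyte sum was not tested.

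The SAA and ORM genes lie in clusters of related copies, and their sequences are shown because reads from shared stretches can be assigned to the wrong copy. On the mm9 assembly with GENCODE M1 annotation, Saa3 (chr7:53967368-53971046, minus strand), Saa1 (chr7:53995871-53998350, minus strand) and Saa2 (chr7:54007203-54009684, plus strand) are protein-coding genes of the same cluster. The first 90 coding bases follow, with capitals marking bases that differ from Saa1, counted without gaps.
Saa1: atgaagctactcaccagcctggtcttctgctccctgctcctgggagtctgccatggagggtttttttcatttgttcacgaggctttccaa
Saa2: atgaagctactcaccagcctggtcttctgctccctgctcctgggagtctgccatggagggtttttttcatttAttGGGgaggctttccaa
Saa3: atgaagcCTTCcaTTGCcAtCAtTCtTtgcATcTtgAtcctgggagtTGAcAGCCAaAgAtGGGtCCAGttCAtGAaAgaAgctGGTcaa
Saa2 differed from Saa1 at 4 of these 90 bases and Saa3 at 44. Over the whole coding sequence Saa1 and Saa2 were 95.1% identical, and 9.17% of the 50-base windows of the Saa1 transcript occurred unchanged in Saa2. Values of Saa1 and Saa2 are therefore uncertain as single genes, while Saa3 shared 1.62% of Saa1 windows and no Saa2 window.

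Orm1 (chr4:63005594-63009197), Orm3 (chr4:63017196-63020545) and Orm2 (chr4:63023483-63026912) lie in a row on the plus strand of mm9. Their first 72 coding bases follow, with capitals marking bases that differ from Orm1.
Orm1: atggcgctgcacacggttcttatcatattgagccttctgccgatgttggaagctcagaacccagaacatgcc
Orm2: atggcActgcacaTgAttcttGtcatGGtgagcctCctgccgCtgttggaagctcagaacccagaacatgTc
Orm3: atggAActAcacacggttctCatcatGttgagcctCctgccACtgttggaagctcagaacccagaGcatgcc
Orm2 and Orm3 each differed from Orm1 at 9 of these 72 bases. Orm1 and Orm2 were 89.9% identical over the coding sequence and shared 20.4% of 50-base windows, against 2.20% for Orm1 and Orm3 and 3.58% for Orm2 and Orm3. Lcn2 (chr2:32240153-32243317), Hp (chr8:112099030-112103072), Hpx (chr7:112740127-112748630) and Apcs (chr1:174824093-174825185) are single protein-coding genes on the minus strand. No exon of the 10 genes overlapped an exon of another annotated gene.

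The promoters of copies resemble each other as well. RefSeq sequences of the GRCm38.p6 build were matched for 8 of the 10 genes (Orm1 and Hp were not matched), and the 250 bases before the start site are shown for Saa1 and Saa2 and for Orm2 and Orm3, as pairs of copies, and for Lcn2, the only gene higher in all 7-day livers than in all controls. Capitals mark the letters TTNNGNAA, a loose form of the C/EBP site, on either strand.
Saa1 (chr7:46742981-46743230, minus strand): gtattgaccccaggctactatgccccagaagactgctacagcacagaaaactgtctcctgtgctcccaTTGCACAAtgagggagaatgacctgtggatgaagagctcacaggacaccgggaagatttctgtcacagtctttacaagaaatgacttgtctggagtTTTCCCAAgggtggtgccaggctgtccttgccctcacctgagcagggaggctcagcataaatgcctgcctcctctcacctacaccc
Saa2 (chr7:46751583-46751832, plus strand): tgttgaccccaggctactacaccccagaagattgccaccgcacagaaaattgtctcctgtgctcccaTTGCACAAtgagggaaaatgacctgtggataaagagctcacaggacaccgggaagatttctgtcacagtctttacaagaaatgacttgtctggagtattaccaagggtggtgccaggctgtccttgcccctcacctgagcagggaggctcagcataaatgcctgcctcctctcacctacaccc
Orm2 (chr4:63362199-63362448, plus strand): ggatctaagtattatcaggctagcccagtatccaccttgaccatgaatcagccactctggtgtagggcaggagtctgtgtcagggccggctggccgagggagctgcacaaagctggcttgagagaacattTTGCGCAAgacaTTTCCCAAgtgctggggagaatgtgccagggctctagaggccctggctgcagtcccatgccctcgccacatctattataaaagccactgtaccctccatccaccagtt
Orm3 (chr4:63355908-63356157, plus strand): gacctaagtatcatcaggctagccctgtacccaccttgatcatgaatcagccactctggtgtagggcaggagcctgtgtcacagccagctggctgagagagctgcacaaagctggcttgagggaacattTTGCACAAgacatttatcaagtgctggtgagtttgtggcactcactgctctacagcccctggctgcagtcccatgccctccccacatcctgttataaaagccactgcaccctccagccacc
Lcn2 (chr2:32387740-32387989, minus strand): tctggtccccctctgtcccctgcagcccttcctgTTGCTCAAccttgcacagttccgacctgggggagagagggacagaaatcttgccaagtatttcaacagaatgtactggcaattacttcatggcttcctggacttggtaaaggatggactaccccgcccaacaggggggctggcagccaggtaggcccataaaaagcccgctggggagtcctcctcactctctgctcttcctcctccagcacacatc
Over these windows Saa1 and Saa2 aligned at 94.8% identity and Orm2 and Orm3 at 85.5%. The C/EBP letters were present in 7 of the 8 windows, the exception being Apcs, and in 36.8% of the 32851 promoters of the table. A single narrow 10-letter form of the NF-kB site was in none of the 8 windows (1.41% of all promoters). Other forms of the NF-kB site were not searched, so the windows may still hold them. The TEAD letters GGAATG were in none of the 8 (12.6%), and the STAT letters TTCNNNGAA were in that of Apcs alone (7.02%). The letters were chosen with the expression values known. A match is a description of the sequence and says nothing about binding.

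Levels are given in eRPKM, reads per kilobase of exon scaled by the authors to each library. They compare genes per length, but reads on the most abundant genes barely moved with depth, as given for Hpx and Hp, so levels of abundant genes against low ones differ with the depth of the library. In control livers the order of mean levels was Hpx (485 eRPKM), Hp (393), Orm1 (282), Apcs (210), Saa1 (67.4), Orm2 (35.5), Saa2 (27.4), Lcn2 (14.9), Orm3 (13.8) and Saa3 (8.63). Neighbours in this order overlapped in their ranges over the 4 livers at every step but that from Apcs to Saa1. The carriers of hemoglobin and heme, Orm1 and Apcs thus formed an abundant set above the SAA genes, Orm2, Orm3 and Lcn2.

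**Figure D1:**
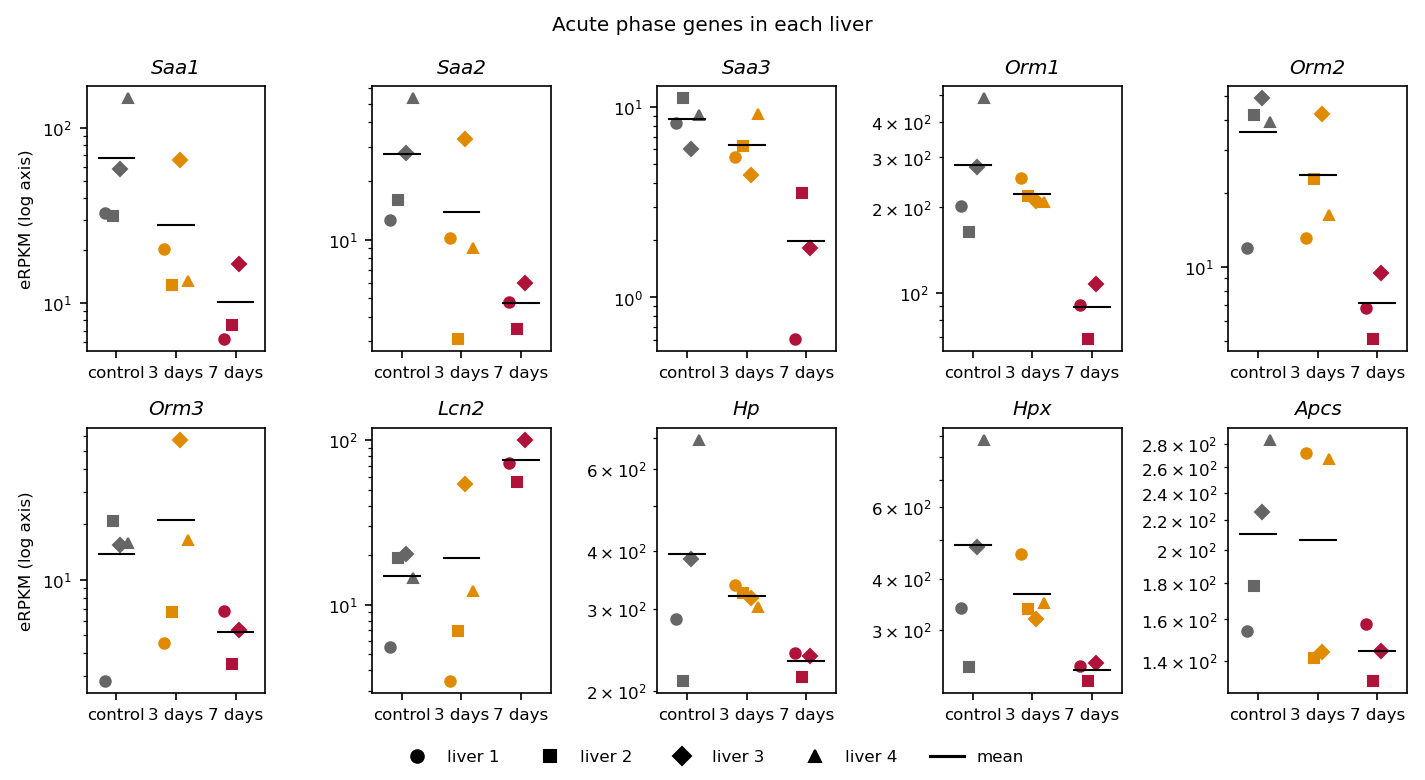
Level of each of the 10 genes in every liver, in eRPKM on a log axis, by group. Symbols give the liver number and bars the group mean. All 7-day livers lie below all controls for Saa1, Saa2, Saa3, Orm1 and Orm2 and above them for Lcn2, and 3-day liver 3 stands above the other 3-day livers in Saa1, Saa2, Orm2, Orm3 and Lcn2 (5 of the 10 genes, against 34.8% of all tested genes).

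Changes were tested with limma on log2(eRPKM + 0.5) over all 14244 genes, and calls required a log2 fold change beyond 0.5 in size together with an adjusted p (Benjamini-Hochberg) under 0.01. After 7 days of YAP induction 4 of the 10 genes were called, and each of them fell: Saa1, Saa3, Orm1 and Orm2. Of all tested genes, 23.8% were called in this comparison, 18.0% as higher and 5.77% as lower. In 5 of the 10 genes every 7-day liver lay below every control, against 13.3% of all genes, and in 1, Lcn2, every 7-day liver lay above, against 36.7%. A log2 fold change below 0 was found in 9 of the 10 genes and in 36.0% of all genes, and the median was -1.32 over the 10 genes and 0.26 over all genes. Against control liver 2, the deepest control, as the only control, log2 fold changes were -1.70 for Saa1, -2.42 for Saa3, -0.90 for Orm1 and -2.52 for Orm2. For Lcn2 it was 1.92. With 1 control that fit holds no spread between controls, so a lost call there says little about a gene. The median over all genes was 0.02 after median-ratio scaling and -0.08 after quantile normalization. At 3 days none of the 10 genes was called by limma. Of all tested genes 6 were (0.0421%). Limma-voom called none of the 10 either. In the limma fit of eRPKM 1 of the 10, Saa1, had an unadjusted p under 0.05, as did 12.1% of all genes. All 10 genes overlapped between controls and 3 days, where 2.25% of all genes were lower and 3.38% higher without overlap. In 9 of the 10 genes the log2 fold change at 3 days was below 0, as in 47.7% of all genes. Beyond the values given with each gene, it was -1.19 for Saa2 (SE 0.57), -0.44 for Saa3 (SE 0.36), -0.22 for Orm1 (SE 0.28), -0.54 for Orm2 (SE 0.43), 0.23 for Orm3 (SE 0.71), -0.15 for Hp (SE 0.28), -0.25 for Hpx (SE 0.31) and -0.06 for Apcs (SE 0.25), with limma adjusted p from 0.435 to 0.949.

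Saa1 encodes an inducible serum amyloid A of plasma. It was measured at 32.7, 31.2, 58.1 and 147.5 eRPKM in control livers 1 to 4, at 20.3, 12.7, 65.7 and 13.4 eRPKM in the 3-day livers, and at 6.23, 7.49 and 16.8 eRPKM in the 7-day livers. Control liver 4 was high among controls and 3-day liver 3 was high among 3-day livers, while all 7-day livers lay below all controls. The mean was 67.4 ± 54.8 eRPKM in controls (SD, n = 4) and 10.2 ± 5.76 at 7 days (SD, n = 3). Against control, Saa1 fell 5.63-fold at 7 days (log2 fold change -2.49, SE 0.61, limma adjusted p = 0.0063, exact permutation p = 0.0286, the smallest that 3 against 4 livers allow). The 3-day difference from control was -1.29 on the log2 scale (SE 0.56, limma adjusted p = 0.383), with 3 of 4 livers below every control. The call at 7 days rests on single libraries: the limma adjusted p was 0.0151 without control liver 3, 0.0172 without control liver 4, 0.0323 without 7-day liver 1 and 0.0296 without 7-day liver 2. It was also lost in female livers alone (log2 fold change -2.14, adjusted p = 0.0331) and with depth as a covariate (-1.52, adjusted p = 0.128). The counts behind these values were small, from 21 to 152 reads per library.

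Saa2, the near-identical neighbour, had 12.7, 15.9, 27.8 and 53.4 eRPKM in controls, 10.1, 3.07, 32.8 and 9.07 eRPKM at 3 days, and 4.75, 3.48 and 5.99 eRPKM at 7 days. The same livers stood out as in Saa1, and the 7-day livers did not overlap the controls. At 7 days against control the difference on the log2 scale was -2.22 (SE 0.62), which missed the threshold (limma adjusted p = 0.0133, exact permutation p = 0.0286). It passed without 3-day liver 2 (adjusted p = 0.00498) or without 3-day liver 3 (adjusted p = 0.00308), which enter through the shared estimate of spread. With depth as a covariate it was -1.38 (adjusted p = 0.203) and without 7-day liver 2 -2.04 (adjusted p = 0.0543). Saa2 was called in 6 of 24 alternatives, the summed copies among them. The ratio of Saa1 to Saa2 stayed between 1.31 and 4.14 over the 11 livers, with 1.96 to 2.76 in controls and 1.31 to 2.80 at 7 days. With both copies summed, the log2 fold change was -2.43 (limma adjusted p = 0.0066).

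Saa3, which is made by macrophages and adipocytes as well as by hepatocytes, had the lowest control mean of the 10 genes, though not the lowest value in every liver. It had 8.29, 11.2, 6.04 and 9.04 eRPKM in controls, 5.45, 6.23, 4.39 and 9.21 eRPKM at 3 days, and 0.603, 3.53 and 1.82 eRPKM at 7 days. Controls and 3-day livers overlapped, and the 7-day livers lay below both. The mean was 8.63 ± 2.11 eRPKM in controls (SD, n = 4) and 1.99 ± 1.47 at 7 days (SD, n = 3). It fell 4.10-fold at 7 days against control (log2 fold change -2.04, SE 0.39, limma adjusted p = 0.0014, exact permutation p = 0.0286). The call held without each liver in turn, but the value comes from 2 to 38 reads per library and the fitted fold depends on the pseudocount. In female livers alone the call was lost (adjusted p = 0.0248). Beside this, the macrophage marker list (6 of 8 genes in the table) summed to 143.7 to 284.1 eRPKM in controls. In the 7-day livers it summed to 600.4 to 653.0 eRPKM, with 4 of its 6 genes called as higher, against 18.0% of all tested genes.

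Saa4, the constitutive member of the family, sits between Saa3 and Saa1 on chromosome 7 and fell as well. Controls held 116.4 to 274.0 eRPKM, 3-day livers 89.4 to 148.4 and 7-day livers 18.9 to 25.3 (log2 fold change -2.74, SE 0.28, limma adjusted p = 1.7e-05), and it was called under every alternative tried.

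Orm1 encodes alpha-1-acid glycoprotein and was the most abundant of the 3 ORM genes in every liver. Its levels were 202.6, 163.5, 277.1 and 485.9 eRPKM in controls, 253.6, 219.0, 210.1 and 208.6 eRPKM at 3 days, and 90.8, 68.6 and 107.3 eRPKM at 7 days. The 3-day livers were tightly grouped inside the control range, and all 7-day livers lay below all the others. The mean was 282.3 ± 143.7 eRPKM in controls (SD, n = 4) and 88.9 ± 19.4 at 7 days (SD, n = 3). Orm1 fell 2.94-fold at 7 days against control (log2 fold change -1.56, SE 0.30, limma adjusted p = 0.0015, exact permutation p = 0.0286). The call was lost without 7-day liver 2 (adjusted p = 0.0110), and against control liver 2 alone the log2 fold change was -0.90. With depth as a covariate the change was smaller but still called (-0.85, adjusted p = 0.0019). The 7-day libraries held 323 to 451 reads on Orm1, fewer than the 481 to 712 reads of every control library although the 7-day libraries were deeper than 3 of the 4.

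Orm2, the second copy, had 11.9, 41.9, 48.9 and 39.1 eRPKM in controls, 13.2, 22.8, 42.2 and 16.3 eRPKM at 3 days, and 6.79, 5.06 and 9.44 eRPKM at 7 days. Control liver 1 was low for its group, and the 7-day livers lay below even that liver. Orm2 fell 4.32-fold at 7 days (log2 fold change -2.11, SE 0.47, limma adjusted p = 0.0035, exact permutation p = 0.0571). The adjusted p was 0.0103 without control liver 2, 0.0112 without control liver 3, 0.0122 without control liver 4, 0.0142 without 7-day liver 1 and 0.0213 without 7-day liver 2, so each of these livers is needed for the call. In female livers alone it was -2.63 (adjusted p = 0.0014), and with depth as a covariate -1.93 (adjusted p = 0.0466).

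Orm3, the third copy, had 2.82, 21.0, 15.5 and 15.8 eRPKM in controls, 4.54, 6.66, 57.3 and 16.4 eRPKM at 3 days, and 6.77, 3.51 and 5.38 eRPKM at 7 days. The groups overlapped, since control liver 1 was below every 7-day liver and 3-day liver 3 was far above all other livers. The log2 fold change at 7 days was -1.07 (SE 0.76, limma adjusted p = 0.291, 95% interval -2.73 to 0.58). It was -1.68 without control liver 1 (adjusted p = 0.0785), -1.89 with Xist as a covariate (adjusted p = 0.0120) and -1.74 in female livers alone (adjusted p = 0.0240). The 3 copies kept no fixed proportion: the ratio of Orm1 to Orm3 ran from 3.67 in 3-day liver 3 to 71.9 in control liver 1. With the 3 copies summed, the log2 fold change was -1.63 (limma adjusted p = 0.00073).

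Lcn2 was the only one of the 10 genes that was higher in all 7-day livers than in all controls. It had 5.55, 19.2, 20.3 and 14.6 eRPKM in controls, 3.42, 6.90, 54.4 and 12.1 eRPKM at 3 days, and 73.2, 55.5 and 100.5 eRPKM at 7 days. Every 7-day liver lay above every control and every 3-day liver, and 3-day liver 3 came close to the lowest of them. The mean was 14.9 ± 6.73 eRPKM in controls (SD, n = 4) and 76.4 ± 22.7 at 7 days (SD, n = 3). The 7-day level was 5.37-fold that of controls (log2 fold change 2.43, SE 0.70), which missed the threshold (limma adjusted p = 0.0157, exact permutation p = 0.0286). It passed without 3-day liver 1 (adjusted p = 0.0068) or 3-day liver 3 (adjusted p = 0.0012), and with limma-voom on the recovered reads (2.48, adjusted p = 0.0026). With depth as a covariate it was 2.30 (adjusted p = 0.108) and in female livers alone 1.88 (adjusted p = 0.0254). Without 7-day liver 3 it was 2.21 (adjusted p = 0.0635). Lcn2 was called in 5 of 24 alternatives. The 3-day difference from control was -0.23 on the log2 scale (SE 0.65, limma adjusted p = 0.919), and without 3-day liver 3 it was -0.96. Libraries held 8 to 469 reads on Lcn2.

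Lcn2 is also made by neutrophils and macrophages, so their markers are given beside it. The neutrophil list (9 of 10 genes in the table, Ly6g not among them) summed to 16.7 to 27.8 eRPKM in controls, 13.1 to 22.6 in 3-day livers and 35.6 to 49.9 in 7-day livers, and 2 of its 5 tested genes, S100a9 and Retnlg, were called as higher at 7 days, against 18.0% of all genes, while 2 of the 5 had log2 fold changes below 0. The granule genes Ngp, Ltf, Mpo and Elane were at or under 1 eRPKM in every liver. The cholangiocyte list summed to 37.5 to 49.0 eRPKM in controls, 40.5 to 84.7 in 3-day livers and 62.2 to 111.8 in 7-day livers, with 2 of 6 genes called as higher, and the adipocyte list to 7.90 to 43.7, 8.06 to 19.2 and 37.4 to 46.8. In 3-day liver 3, where Lcn2 was high, the neutrophil sum (22.6) was the highest of its group but lay inside the control range. The macrophage sum (185.9) and the adipocyte sum (11.8) were not the highest, and the cholangiocyte sum (40.5) was the lowest of its group. The part of these cells in the level of Lcn2 was not tested.

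**Figure D2:**
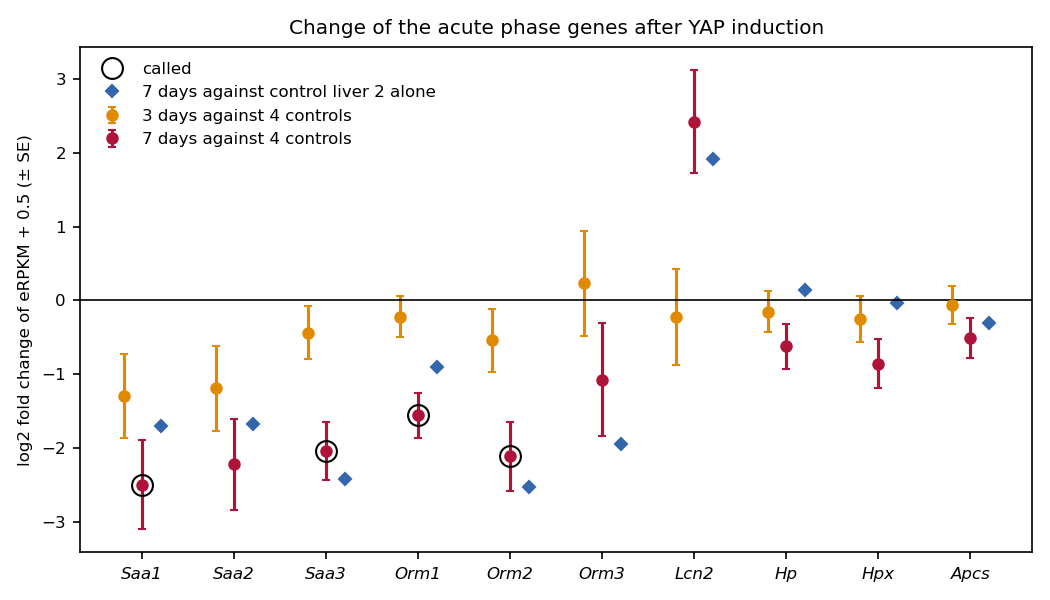
Log2 fold change of eRPKM + 0.5 of each gene against the 4 controls at 3 days and 7 days (points, with bars of 1 SE), and at 7 days against control liver 2 alone (diamonds). Black rings mark the 4 called genes. Saa1, Saa2, Saa3, Orm1, Orm2 and Orm3 lie below 0 and Lcn2 above 0 at 7 days by either reference, while Hp, Hpx and Apcs are at 0.14, -0.03 and -0.30 against control liver 2, so that Hp changes sign.

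Haptoglobin and hemopexin are secreted by hepatocytes at high levels in healthy liver. Hp had 286.2, 209.8, 384.2 and 692.1 eRPKM in controls, 337.3, 325.3, 316.5 and 302.5 eRPKM at 3 days, and 241.7, 214.7 and 238.1 eRPKM at 7 days. The 3 lower controls and both induced groups covered much the same range, and control liver 4 was far above them. The log2 fold change at 7 days was -0.62 (SE 0.30, limma adjusted p = 0.124, 95% interval -1.27 to 0.03, exact permutation p = 0.257), and it was 0.11 with depth as a covariate and 0.18 after quantile normalization. Hp was thus not shown to change, and its direction turned with the processing.

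Hpx followed the same livers, with 339.0, 243.2, 479.3 and 878.5 eRPKM in controls, 460.5, 337.4, 319.2 and 349.0 eRPKM at 3 days, and 244.0, 224.1 and 248.5 eRPKM at 7 days. The lowest control lay inside the 7-day range. The log2 fold change was -0.85 at 7 days (SE 0.33, limma adjusted p = 0.0600, 95% interval -1.58 to -0.13, exact permutation p = 0.143). It was called without control liver 2 (-1.13, adjusted p = 0.0096), and it was -0.02 with depth as a covariate and -0.03 against control liver 2 alone.

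The reads behind these values moved little with depth. While depth differed 4.75-fold between libraries, reads on Hpx ranged from 1676 to 2041 and reads on Hp from 1200 to 1795, so their eRPKM values were lower in the deeper libraries. Reads on Apcs ranged from 360 to 997 and on Orm1 from 323 to 712. In control liver 4, the shallowest library, Saa1, Saa2, Orm1, Hp, Hpx and Apcs had their highest control level, and it was the highest control for 14.6% of all tested genes. The part of depth in these differences was not tested beyond the fits named here.

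**Figure D3:**
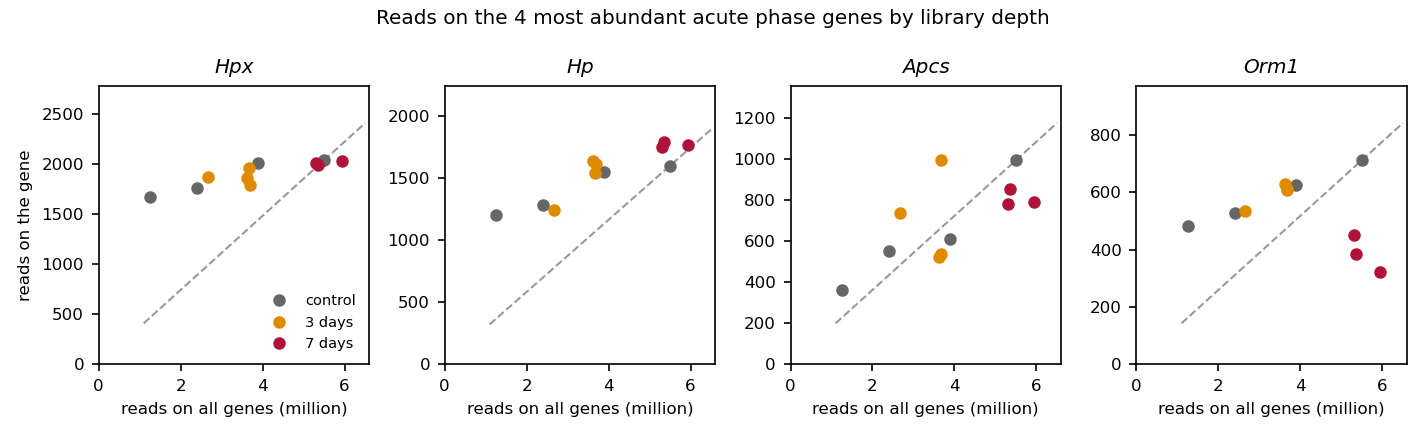
Reads on Hpx, Hp, Apcs and Orm1 in each library against the reads on all genes (in units of 1e6), with both axes linear. The dashed line is the proportion found in control liver 2. Reads on Hpx stay between 1676 and 2041 over libraries of 1251396 to 5941357 reads, and the 7-day libraries lie below the line for Orm1 and near it for Hpx and Hp.

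Apcs encodes serum amyloid P, a major acute phase pentraxin of mice. It had 154.1, 178.1, 225.3 and 283.8 eRPKM in controls, 272.7, 141.6, 144.1 and 267.0 eRPKM at 3 days, and 157.5, 131.3 and 144.8 eRPKM at 7 days. The 3-day livers fell into a high pair, livers 1 and 4, and a low pair, livers 2 and 3, and the 7-day livers overlapped the lowest control. The log2 fold change was -0.50 at 7 days (SE 0.27, limma adjusted p = 0.165, 95% interval -1.10 to 0.09), and 0.09 after quantile normalization. The columns of 3-day livers 1 and 4 and of 7-day liver 2 carry the suffix MF in the deposited header, whose meaning was not given in the sources used here.

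Between 3 and 7 days, 2 of the 10 genes were called, Saa3 and Orm1, and both fell. Of all tested genes 19.3% were called here, 5.31% as lower. This comparison shares its livers with the other comparisons. Saa3 fell by 1.60 on the log2 scale (SE 0.39, limma adjusted p = 0.0076) and Orm1 fell by 1.34 (SE 0.30, adjusted p = 0.0048). In both, all 3 livers at 7 days lay below all 4 at 3 days (exact permutation p = 0.0286). The 7-day livers were also lower without overlap in Orm2 (log2 fold change -1.57, adjusted p = 0.0208, exact permutation p = 0.0571). So were they in Hp (-0.47, adjusted p = 0.241) and Hpx (-0.60, adjusted p = 0.173). In all, 5 of 10 genes were lower without overlap, against 13.8% of all genes. In 9 of the 10 genes this difference was below 0, as in 35.3% of all genes. Every 7-day library was deeper than every 3-day library. Reads on Hp were 1753 to 1795 at 7 days and 1246 to 1636 at 3 days, and reads on Hpx 1994 to 2033 and 1792 to 1960. With depth as a covariate the step was 0.069 for Hp, 0.0086 for Hpx, -0.82 for Orm1, -1.44 for Orm2 and -1.74 for Saa3. The part of depth was not tested beyond this fit. Lcn2 was higher in every 7-day liver than in every 3-day liver, as were 31.3% of all genes, at 6.28-fold the 3-day level (log2 fold change 2.65, SE 0.70, adjusted p = 0.0113). Saa1 (-1.20) and Saa2 (-1.03) overlapped between the groups, Saa1 through 3-day livers 2 and 4 and Saa2 through 3-day liver 2. The limma adjusted p of Saa3 was 0.0117 without control liver 1, 0.0145, 0.0171 and 0.0231 without 3-day livers 1, 2 and 4, and 0.0361 and 0.0251 without 7-day livers 1 and 3. That of Orm1 was 0.0138, 0.0110 and 0.0107 without 3-day livers 1, 2 and 4, and 0.0170, 0.0295 and 0.0106 without 7-day livers 1, 2 and 3. Both calls were also lost with a replicate block (adjusted p = 0.0104 for Saa3 and 0.0108 for Orm1), with Xist as a covariate (0.0164 and 0.0146) and in female livers alone (0.0587 and 0.0102). Called instead were Orm2 and Lcn2 with the block, and Orm2 and Orm3 with Xist and in female livers. Saa3, but not Orm1, also lost its call with depth as a covariate (limma adjusted p = 0.0186), with limma-voom (0.0117) and without the filter on low values (0.0112). Saa3 was called in 11 of 23 alternatives of this comparison and Orm1 in 14 of 23. Lcn2 was called without 3-day liver 3 (3.39, adjusted p = 0.00028) and Orm2 without control liver 1 (adjusted p = 0.0048).

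Other positive acute phase proteins, a list of 22 genes of coagulation, complement, protease inhibition and metal binding, gave 7 called falls and 1 called rise at 7 days, against 18.0% called higher and 5.77% called lower over all genes. Its median log2 fold change was -0.79, against 0.26 over all genes. Besides Saa4, the largest falls were those of F8, coagulation factor VIII (log2 fold change -1.57, SE 0.27, limma adjusted p = 0.00070), and Serpina3k, a serine protease inhibitor (-1.32, SE 0.33, adjusted p = 0.0080), and Crp, Serpina3n, Serpina3m and Fgl1 were also called. The fall of Serpina3k was lost in 14 of 24 alternatives. The rise was that of Cd14, the lipopolysaccharide coreceptor of monocytes and macrophages, from at most 4.58 eRPKM in controls to 30.0 to 38.0 eRPKM at 7 days (3.38, SE 0.38, adjusted p = 3.6e-05). With depth as a covariate 3 genes fell and 1 rose. Fibrinogen chains had log2 fold changes from -1.06 (Fgg) to -0.85 (Fga) without a call, and the metallothioneins Mt1 (0.04) and Mt2 (0.77) were not called.

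Negative acute phase proteins, whose plasma levels drop in inflammation, were mostly lower as well. Of 10 genes, 4 fell at 7 days and none rose, against 18.0% called higher and 5.77% called lower over all genes, with a median log2 fold change of -0.82. Serpina6, the corticosteroid-binding globulin, had 99.2 to 208.7 eRPKM in controls and 57.5, 7.48 and 13.0 eRPKM at 7 days (log2 fold change -3.02, SE 0.52, limma adjusted p = 0.00072). Apoa2, an apolipoprotein of high-density lipoprotein (-1.46, SE 0.33, adjusted p = 0.0040), and Ttr, the thyroxine carrier transthyretin (-1.40, SE 0.26, adjusted p = 0.0011), also fell, as did the growth factor Igf1. The call of Apoa2 was lost in 7 of 24 alternatives. Both lists contain abundant genes, for which the values on reads and depth given above apply. The part of depth in these falls was not tested beyond the fits named here.

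**Figure D4:**
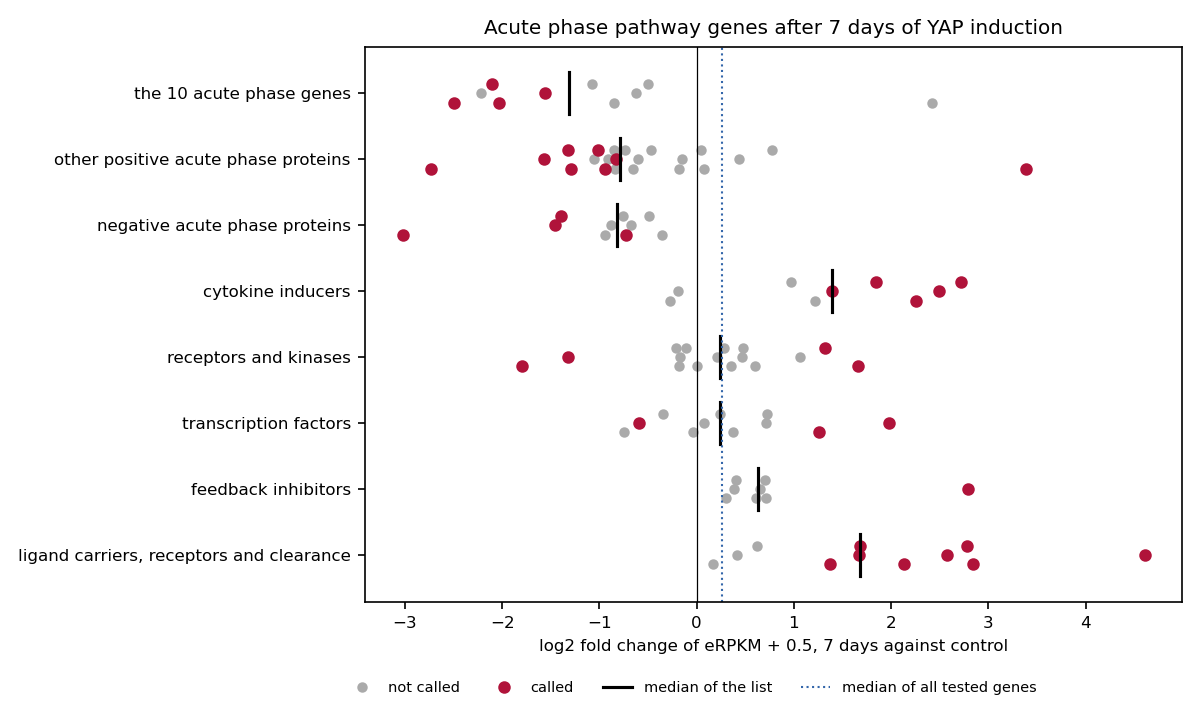
Log2 fold change of eRPKM + 0.5 at 7 days against control for the tested genes of each list, 1 point per gene, shifted vertically for visibility. Red points are called genes, the black bar is the median of the list and the dotted line is the median of all tested genes, 0.26. The acute phase genes and both lists of other acute phase proteins lie mostly below 0, and the cytokine list and the list of carriers and receptors mostly above.

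Of 12 inducing cytokines 9 were tested at 7 days. Of these 5 rose and none fell, against 18.0% called higher and 5.77% called lower over all genes, with a median of 1.39 on the log2 scale. Il6 was listed at 0 in control liver 1, at 0.326 to 0.444 eRPKM in the other controls, at no more than 0.153 at 3 days, and at 2.05, 0.754 and 1.92 eRPKM at 7 days (log2 fold change 1.39, SE 0.31, limma adjusted p = 0.0039). This rise was lost in 11 of 24 alternatives. Tnf went from at most 0.763 eRPKM in controls to 2.24, 3.13 and 4.07 eRPKM (2.26, SE 0.32, adjusted p = 0.00016). The interleukin 6 family cytokines Clcf1 (2.71, SE 0.29, adjusted p = 2.8e-05) and Ctf1 (2.49, SE 0.33, adjusted p = 9.2e-05) rose, and so did Lif. Il1b had 1.54 to 3.88 eRPKM in controls and 8.64, 3.85 and 6.91 eRPKM at 7 days, without a call (1.21, SE 0.37, adjusted p = 0.0205). At 3 days no gene of any list was called.

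Receptors and kinases of these cytokines gave 2 rises and 2 falls among 16 genes, against 18.0% called higher and 5.77% called lower over all genes, and a median log2 fold change of 0.24. Lifr, the receptor chain for leukemia inhibitory factor, fell from 83.6 to 99.3 eRPKM in controls to 23.0 to 27.6 eRPKM at 7 days (-1.80, SE 0.14, limma adjusted p = 3.8e-06). Il1rap, the accessory chain of the interleukin 1 receptor, fell too (-1.32, SE 0.22, adjusted p = 0.00052). Ifngr1, an interferon gamma receptor chain (1.66, SE 0.17, adjusted p = 2.2e-05), and Il22ra1, the interleukin 22 receptor (1.32, SE 0.31, adjusted p = 0.0045), rose, the call of Il22ra1 being lost in 7 of 24 alternatives. The interleukin 6 receptor was not shown to change in either chain, with Il6ra at 0.28 (SE 0.32, adjusted p = 0.519) and Il6st at -0.18 (SE 0.12, adjusted p = 0.292).

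Of 11 transcription factors, 2 rose and 1 fell at 7 days, against 18.0% called higher and 5.77% called lower over all genes, with a median log2 fold change of 0.24. Stat3, which transmits interleukin 6 signals, had 43.1 to 57.5 eRPKM in controls and 43.0 to 51.5 eRPKM at 7 days (-0.04, SE 0.23, limma adjusted p = 0.911). Cebpd, a C/EBP factor that inflammation induces, rose from 4.52 to 8.93 eRPKM in controls to 14.4 to 20.5 eRPKM (1.26, SE 0.27, adjusted p = 0.0026), and Egr1, an immediate early gene, rose as well (1.98, SE 0.38, adjusted p = 0.0013). The calls were lost in 6 of 24 alternatives for Cebpd and in 4 for Egr1. Nr3c1, the glucocorticoid receptor, fell (-0.60, SE 0.15, adjusted p = 0.0086), a call lost in 13 of 24 alternatives. Cebpa, the C/EBP factor of mature hepatocytes, had 136.2 to 217.5 eRPKM in controls and 81.1 to 123.1 eRPKM at 7 days without a call (-0.75, SE 0.22, adjusted p = 0.0182). Cebpb stood at 0.24 (SE 0.27, adjusted p = 0.515) and turned to -0.04 after median-ratio scaling. The NF-kB subunits Nfkb1 (0.71, SE 0.19, adjusted p = 0.0102) and Rela (0.73, SE 0.21, adjusted p = 0.0150) were higher in all 7-day livers than in all controls without a call.

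Among 8 feedback inhibitors of these pathways 1 rose and none fell, against 18.0% called higher and 5.77% called lower over all genes, with a median log2 fold change of 0.63. It was Tnfaip3, the A20 inhibitor of NF-kB, which went from 1.52 to 3.03 eRPKM in controls to 16.7 to 21.1 eRPKM at 7 days (2.79, SE 0.28, limma adjusted p = 1.5e-05). Socs3, the inhibitor that interleukin 6 induces, had 6.28 to 31.6 eRPKM in controls and 17.9 to 26.6 eRPKM at 7 days (0.61, SE 0.44, adjusted p = 0.292).

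Partners and receptors of the acute phase proteins gave 8 rises and no fall among 11 tested genes of 12, against 18.0% called higher and 5.77% called lower over all genes, and a median log2 fold change of 1.68. Mmp9, the protease that forms a complex with lipocalin 2, rose from at most 0.843 eRPKM in controls to 41.8, 9.51 and 29.6 eRPKM (4.61, SE 0.48, limma adjusted p = 2.1e-05). Cd163, the macrophage receptor that takes up haptoglobin with hemoglobin, rose from 4.43 to 15.6 eRPKM to 71.5 to 82.4 eRPKM (2.84, SE 0.36, adjusted p = 7.2e-05). Hmox1, which breaks down the heme so delivered, rose from 7.88 to 15.1 eRPKM to 68.8 to 88.1 eRPKM (2.78, SE 0.26, adjusted p = 1.0e-05). Fpr1, Fpr2, Tlr2, Tlr4 and Ager were the other called rises, and several of these genes mark macrophages and other leukocytes, whose marker sums were higher at 7 days as given above.

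The genes whose pattern over the 11 livers was most like that of each member were found by Pearson r of log2(eRPKM + 0.5) over 12569 genes, as a description, since all points share the library depth. For Hpx these were Apob (r = 0.998), Apoe (0.998) and Fgb (0.997), and for Hp Eef1a1 (0.992) and Vtn (0.990), all among the abundant genes of the table with at least 213.8 eRPKM in every liver. Orm1 was most like Gnmt (r = 0.993), Hpd (0.990) and Cyp2e1 (0.988), and Apcs most like Pnp (0.953), Mpc1 (0.949) and Rpl36a (0.947). Saa1 and Saa2 shared Acad9 (r = 0.951 and 0.913) and Epha3 (0.904 and 0.872), and Orm2 and Orm3 shared Pid1 (0.948 and 0.863). Saa3 was most like Klhl21 (r = 0.963), and Lcn2 most like Zmiz2 (0.975), Pidd1 (0.953) and Dot1l (0.952).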

How the data were processed

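Total RNA of 11 homogenized livers was made into unstranded libraries with the TruSeq RNA kit v2. Per the study's methods the authors masked low-quality bases and aligned read pairs to mm9 with TopHat2 2.0.8, and the submitters' processing notes also name featureCounts 1.4.5-p1, SAMtools and DESeq2. The gene annotation and the handling of duplicate reads were not given in the sources used here. The deposited values are eRPKM, a form of RPKM that the authors computed per library from reads on exons. A further 3 deposited columns come from the authors' DESeq2 run for 7 days against control (mean signal, log2 ratio and p-value after adjustment) and were not used.

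Groups came from the sample titles. Reads per gene were recovered from the steps of the eRPKM values (100% of 177553 values above 0 lay within 0.1 of a whole read) and served for depth and for limma-voom. The test was limma 3.58.1 in R 4.3.3 (lmFit and eBayes with trend) on log2(eRPKM + 0.5), keeping genes that reached 0.5 eRPKM in 3 or more livers, with the 3 groups in 1 fit. Benjamini-Hochberg adjustment was over all 14244 tested genes. A fold change on this scale understates the change of low genes. Exact two-sided permutation tests ran over 70 or 35 splits of the livers, 30 tests in all, and are given unadjusted. The fit was tested on simulated reads. The 10 members and the gene lists were chosen with earlier results of these data known. Named from the lists are up to 3 called rises and 3 called falls each at 7 days, and 12 regulators in every case, with the 3 genes of highest Pearson r as most like a member (not all of them are printed). Other genes named were chosen after their values were seen. The 24 alternative settings are covered in the closing section. Intervals are 95% intervals of limma and depth limits cover counting error only. Exact tests used numpy 2.4.6 under Python 3.11.15. Alignments used Biopython 1.88 and plots matplotlib 3.10.9, with NCBIM37 and GENCODE M1 for positions.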

Additional observations from a re-analysis of the deposited data

Results flagged for a closer look

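Of 20 sets of 4 livers (10 genes in controls and at 3 days), 2 held a liver far from the other 3. In both it was 3-day liver 3, the highest of its group. The gap to the next liver was 0.857 of the whole eRPKM range for Saa1 and 0.831 for Lcn2, both above Dixon's critical value for 4 samples. Chance alone flags about 1 in 20 sets only where values are normal and sets are independent. Here the sets share livers, and the ratio was taken on eRPKM and not on the log2 scale of the fits. This liver was also the highest of its group for Saa2, Orm2 and Orm3, and for 34.8% of all tested genes. Between 3 and 7 days of induction the change of Saa3 (log2 fold change -1.60) and of Orm1 (-1.34) differed from 0 in limma's test of the step itself.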

How the results depend on the processing

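Of the 710 values of the 10 genes under 24 alternatives, 612 kept their direction and their side of the threshold, 39 lost a call, 28 gained one and 31 changed direction. No gene was called at 3 days under any alternative. At 7 days against control the count of called genes was 4. It was 5 after quantile normalization, with Xist as a covariate and with limma-voom, and 6 at the looser adjusted p of 0.05. In female livers only it was 2, and with depth as a covariate 2. Leaving out 1 liver gave 1 to 6. With copies summed it was 6, but each sum was counted once per copy. What was called there was Saa3, the sum of Saa1 and Saa2, and the sum of Orm1 to Orm3. The fit against control liver 2 as the only control was chosen after seeing the data. It leaves 1 control assumed to vary like the other groups, and no count is given for it. Between 3 and 7 days the count was 2. It was 1 without the filter, 4 after quantile normalization and 1 with depth as a covariate. At the looser adjusted p of 0.05 regardless of fold it was 4, and without 1 liver it was 0 to 3. With copies summed it was 4, again counted once per copy, for Saa3 and the sum of Orm1 to Orm3. Changes of direction at 3 days against control were seen against control liver 2 alone for Orm1 (0.44), Orm3 (-0.65), Hp (0.61), Hpx (0.58) and Apcs (0.14), with copies summed for Orm3 (-0.21), in female livers for Lcn2 (0.37) and Hp (0.12), after quantile normalization for Hp (0.036) and Apcs (0.021), and with depth as a covariate for Hp (0.042) and Apcs (0.051). Leaving out 1 liver gave ranges at 3 days of -0.44 to 0.085 for Orm1, -0.46 to 0.71 for Orm3, -0.96 to 0.31 for Lcn2, -0.40 to 0.17 for Hp, -0.53 to 0.091 for Hpx and -0.22 to 0.097 for Apcs. At 7 days against control the direction changed for Hp after quantile normalization (0.18), with depth (0.11) and against control liver 2 (0.14), and for Apcs after quantile normalization (0.086). Between 3 and 7 days it changed after quantile normalization for Hp (0.14), Hpx (0.0043) and Apcs (0.066) and with depth for Hp (0.069) and Hpx (0.0086). The cause was not tested. The other lists were run under the same alternatives after the data were seen: 664 values of named genes kept direction and side of the threshold, 69 lost a call, 7 gained one, and Stat3 (0.12 against control liver 2, -0.11 to 0.044 without 1 liver) and Cebpb (-0.037 after median-ratio scaling) changed direction. Of all genes called at 7 days, 75.7% were higher (2561 rose, 822 fell), against 60.3% after median-ratio scaling, 50.5% after quantile normalization and 65.6% with depth. Those counts were 1281 falls after median-ratio scaling, 1821 falls after quantile normalization, 1099 rises with depth, 1523 rises in female livers, and 1588 to 2770 rises and 469 to 914 falls without 1 liver. Deviations of same-numbered livers from their group means had r from -0.22 to 0.27 over 10 pairs, 2 of them over 0.1. Other-numbered livers had r from -0.28 to 0.24 over 30 pairs, 8 of them over 0.1. The check gave no sign of pairing by number, but with so few livers it cannot exclude a shared litter or handling. With a replicate block the counts of called genes were 0, 5 and 2, the last being Orm2 and Lcn2 in place of Saa3 and Orm1, and 7-day changes were -1.42 for Orm1 and 2.46 for Lcn2. Low read counts limit Saa2 (7 to 76 reads) and Saa3 (2 to 38 reads) most.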

Other observations

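Metallothioneins, metal-binding proteins that glucocorticoids and cytokines induce in liver, were highest in 3-day liver 3 within its group, as were Saa1 and Saa2 but not Saa3 or Saa4. Mt1 had 15.0, 32.2, 125.0 and 40.8 eRPKM in the 3-day livers and Mt2 11.8, 23.1, 164.1 and 40.8. In controls Mt1 had 48.5, 78.2, 73.7 and 30.8 eRPKM and was lowest in liver 4, the liver in which Saa1 was highest. Lbp, the plasma protein that hands lipopolysaccharide to Cd14, had 12.1 to 23.4 eRPKM in controls and 19.4 to 24.7 eRPKM at 7 days, with a log2 fold change of 0.43 that was not called (limma adjusted p = 0.198).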
